A study of Caenorhabditis elegans with 4 samples.

Results

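Chromosome IV of Caenorhabditis elegans carried 394 of the 1888 regions in a combined list of sites bound by RNA polymerase II (Pol II) in larvae of the second stage (L2). The members were taken by position alone, as every region of the list that lies on chromosome IV, and no measured value entered the choice. The study used chromatin immunoprecipitation and sequencing (ChIP-seq) of wild-type N2 hermaphrodites grown at 20 °C. Chromatin was precipitated in 2 ChIP libraries with the mouse monoclonal 8WG16, and 2 further libraries held input DNA, chromatin sequenced without immunoprecipitation. The antibody recognises the heptapeptide repeats at the C-terminus of the largest subunit of the polymerase, AMA-1 in the worm. Each of the 2 replicates came from its own extraction, per the labels. All 4 libraries share strain, stage and temperature, so the comparison in the design is ChIP against input. The protocol text shared by the samples names embryos and an anti-GFP serum, and the stage and antibody given here are those of the sample labels.

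Pol II transcribes all protein-coding genes and many small-RNA genes. The repeats that 8WG16 recognises are the tail on which the polymerase is phosphorylated as it passes from initiation to elongation, and the antibody binds best where these repeats are little phosphorylated. Genes of C. elegans are compact and closely spaced, and a share of them lie in operons, so that bound stretches of neighbouring genes can adjoin. Chromosome IV is known as the home of most piRNA genes of the worm, short Pol II units that make the germline RNAs loaded on the Argonaute protein PRG-1. They are concentrated in a large cluster at about 13500000 to 17200000 in the right part and in a smaller one at about 4.5 to 7 Mb. At the L2 stage the germ line is made up of few cells.

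The list gave the borders of each region on the WormBase WS210 build together with the authors' q value. Both replicates entered a single list, so no value belongs to one library, no spread between replicates can be given, and every comparison below is a description without a test. The gene table at hand follows another assembly, so regions carry no gene names and no exon or intron annotation, and each is named by chromosome and start. The q values could be turned back into pairs of whole tag numbers for 391 of the 394 regions. The larger number is read as ChIP tags and the smaller as input tags after scaling, which the sources used here do not state. Their ratio is called enrichment here. The q values also gave the number of candidate regions tested in the whole genome, 15045, of which 12.8% passed the q limit. They place 42 regions ahead of the first of the list, at lower p values. These were not analysed here, and any of them could lie on chromosome IV.

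The regions of IV spanned 17.35 Mb from 126118 to 17472336 and covered 738.8 kb, or 4.26% of that span. They made up 20.9% of the list (Wilson 95% interval 19.1% to 22.8%) and 20.8% of its covered length. IV had 22.7 regions and 42.6 kb covered per Mb of span, against 18.2 and 34.2 kb on the other 5 chromosomes together. Of these, I had 42.7 regions per Mb and the rest 8.94 to 20.7. The median region of IV was 1132 bp wide (quartiles 541 and 2557 bp), against 1006 bp (459 and 2618 bp) for the 1494 regions of the other 5 chromosomes. Of the width classes used, which are unequal, that of 2 to 5 kb was the most frequent on IV. Its 112 regions (28.4%, against 23.4% elsewhere) held 47.7% of the covered length. It was also the most frequent class elsewhere, with 349 regions. Both tails held smaller shares than on the other 5 chromosomes together, where chromosome I alone has 642 regions. Widths were not compared with each chromosome in turn. Regions of 5 kb or more numbered 24 (6.09%, against 8.84%) and held 24.2% of the covered length, against 34.2%, and regions under 100 bp numbered 9 (2.28%, against 4.95%). The widest was IV_14610406, which ran for 14207 bp, followed by IV_8584507 (8584507 to 8595269, 10763 bp) and IV_9989339 (9989339 to 9999123, 9785 bp). The narrowest were IV_1874601 and IV_13408611, with 9 bp each, and IV_12130243, with 11 bp. Regions this narrow rested on few tags: the 7 regions under 100 bp with recovered tags held 21 to 30 ChIP tags each. Width depends on the q limit: among the 195 regions of IV in the 944 of lowest q in the list, the median was 2240 bp.

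**Figure D1:**
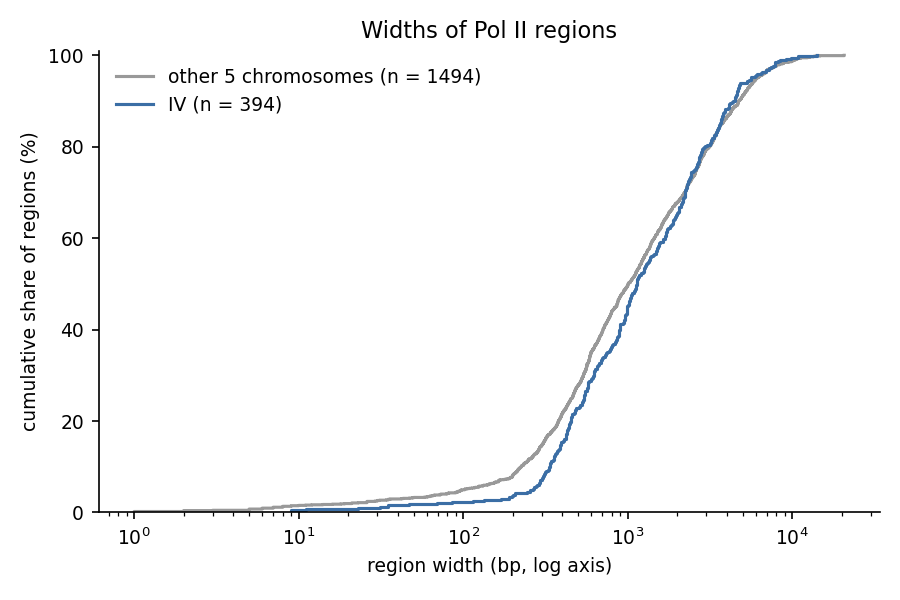
Cumulative share of regions (vertical axis, %) by region width (horizontal axis, bp, log scale) for chromosome IV and for the other 5 chromosomes together. The lines cross: IV has fewer regions under 500 bp (22.8% against 27.8%) and fewer of 5 kb or more (6.09% against 8.84%).

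Enrichment on IV had a median of 1.86-fold, an interquartile range of 1.60 to 2.33 and a lowest value of 1.18 over the 391 regions with tags. ChIP tags per region ran from 21 to 4767 with a median of 239. An enrichment of 2-fold was reached by 160 regions (40.9%), where the share over the whole list was 43.9%. A 3-fold enrichment was reached by 43 regions (11.0%, whole list 12.6%) and a 4-fold one by 15 (3.84%, whole list 4.9%). These shares lay near those of the whole list, which chromosome I weighs on: 57.0% of its regions reached 2-fold, against 40.5% on II, 36.9% on III, 35.1% on V and 25.9% on X. The inferred input factor differs by chromosome and was 2.00 on I and 2.44 on IV. With the highest of the 6 factors used throughout, 52.7% of the regions of IV with tags stayed at the p limit, against 64.0% of the others. That factor, 3.16, is the one of II, and those of V (3.09) and III (2.97) lie near it. Chromosomes with a factor near it change little by construction, so these shares do not compare the strength of binding. Tags were concentrated in few regions: the 39 regions with the most ChIP tags held 41.4% of all tags in regions of IV and 31.6% of the covered length.

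Among the 15 regions of IV with the lowest q, the first was IV_8429709 (8429709 to 8433850), with q = 2.45e-304, for which no single pair of tag numbers was recovered. IV_2767955, from 2767955 to 2776412, followed with 2963 ChIP tags against 861 scaled input tags, an enrichment of 3.44-fold (95% interval 3.08 to 3.86). The exact (Clopper-Pearson) intervals of single regions cover counting error only. IV_3644708 (3644708 to 3649310) reached 3.61-fold (3.20 to 4.11) with 2487 ChIP tags. IV_4467914 (4467914 to 4474487) held 3307 ChIP tags at 2.84-fold (2.58 to 3.13). These 15 regions were spread along the chromosome, 8 left of the midpoint of the span and 7 right of it, 3 of them in the piRNA window. In the 14 with tags, enrichment ranged from 2.01 to 5.40-fold with a median of 2.96, and ChIP tags from 1064 to 4767. The median width of the 15 was 4812 bp, but width alone did not bring a low q: IV_8584507 and IV_9989339, next in width after IV_14610406, were 1.49-fold and 1.46-fold enriched and reached q values of 5.19e-27 and 1.92e-28.

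The most enriched regions with at least 100 ChIP tags were short to medium in width. IV_4235395 (4235395 to 4237704, 2310 bp) led with 1382 ChIP tags against 256 scaled input tags, or 5.40-fold (4.42 to 6.65). IV_866678 (866678 to 867293) spanned only 616 bp and reached 4.55-fold (3.33 to 6.38) from 478 ChIP tags. IV_14984654 (14984654 to 14986882), inside the piRNA window, reached 4.53-fold (3.69 to 5.66) from 1064 tags. IV_8428263 (8428263 to 8429214) reached 4.44-fold (3.41 to 5.95) and ended 494 bp before the region of lowest q, IV_8429709. IV_11063047 (11063047 to 11064293) reached 4.25-fold (3.18 to 5.85). The intervals of these 5 regions overlapped, so their order is not resolved by the tags. Of the 303 regions of 500 bp or more with tags, IV_14032354 (14032354 to 14035035) had the densest ChIP signal, 1037 tags per kb against a median of 215, at an enrichment of 3.22-fold (2.89 to 3.62).

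**Figure D2:**
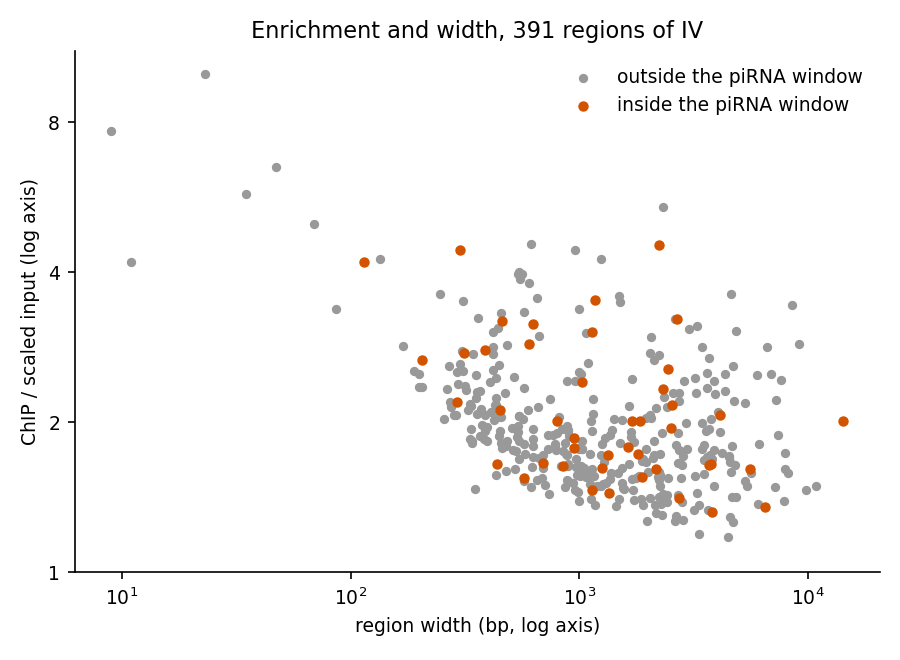
Enrichment (vertical axis, ChIP over scaled input, log scale) against region width (horizontal axis, bp, log scale) for the 391 regions of IV with recovered tags, with the piRNA window in orange. Narrow regions sit high and wide ones low (Spearman rho −0.364), while the 5 most enriched regions with at least 100 tags are 616 to 2310 bp wide.

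Narrow regions had the higher enrichment. The median was 5.75-fold under 100 bp, 2.24-fold from 100 to 500 bp, 1.81-fold from 500 to 1000 bp and 1.67-fold from 1 to 2 kb, and it was 1.74-fold from 2 to 5 kb and 1.68-fold from 5 to 10 kb. Across the 391 regions the Spearman correlation of width and enrichment was −0.364, and among the 325 with at least 100 ChIP tags it was −0.177. With few tags, only a high ratio gives a q under the limit, so this relation is partly set by the calling. At the q limit stood IV_16938809 (16938809 to 16938923), with 21 ChIP tags against 5 and q = 0.00977, and IV_8136056 (8136056 to 8136791), with 175 against 122 and q = 0.00976. Their enrichments were 4.2-fold (1.05 to 37.9) and 1.43-fold (1.04 to 2.01). At nearly equal q these regions thus differed in precision. Their intervals overlap, so a difference in strength is not resolved by the tags.

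Regions were spread unevenly along IV. Of the 18 bins of 1 Mb, those between 4 and 5 Mb and between 11 and 12 Mb stood highest, with 45 and 43 regions that covered 78.7 and 79.6 kb. Counting only the 472 regions of lowest q in the list, these bins held 10 and 11. With bins shifted by 0.5 Mb the fullest ran from 10.5 to 11.5 Mb, with 41 regions. The bin between 1 and 2 Mb followed with 37 regions and 53.5 kb, and these 3 bins held 31.7% of the regions of IV. The median bin held 20.5 regions. The fewest lay between 15 and 16 Mb (5 regions, 11.5 kb), between 12 and 13 Mb (7 regions, 18.6 kb) and between 16 and 17 Mb (9 regions, 14.5 kb). The sharpest change between neighbouring bins was that from 43 regions between 11 and 12 Mb to 7 in the next. Enrichment varied less than number: the medians of the bins ran from 1.68-fold (17 Mb to the end) to 2.22-fold (12 to 13 Mb), and the 2 fullest bins had medians of 1.87-fold and 1.92-fold. At a finer scale the fullest window of 100 kb ran from 4.4 to 4.5 Mb, where 12 regions covered 24.7 kb, among them IV_4467914. Of 174 such windows, 37 (21.3%) held no midpoint of a region.

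**Figure D3:**
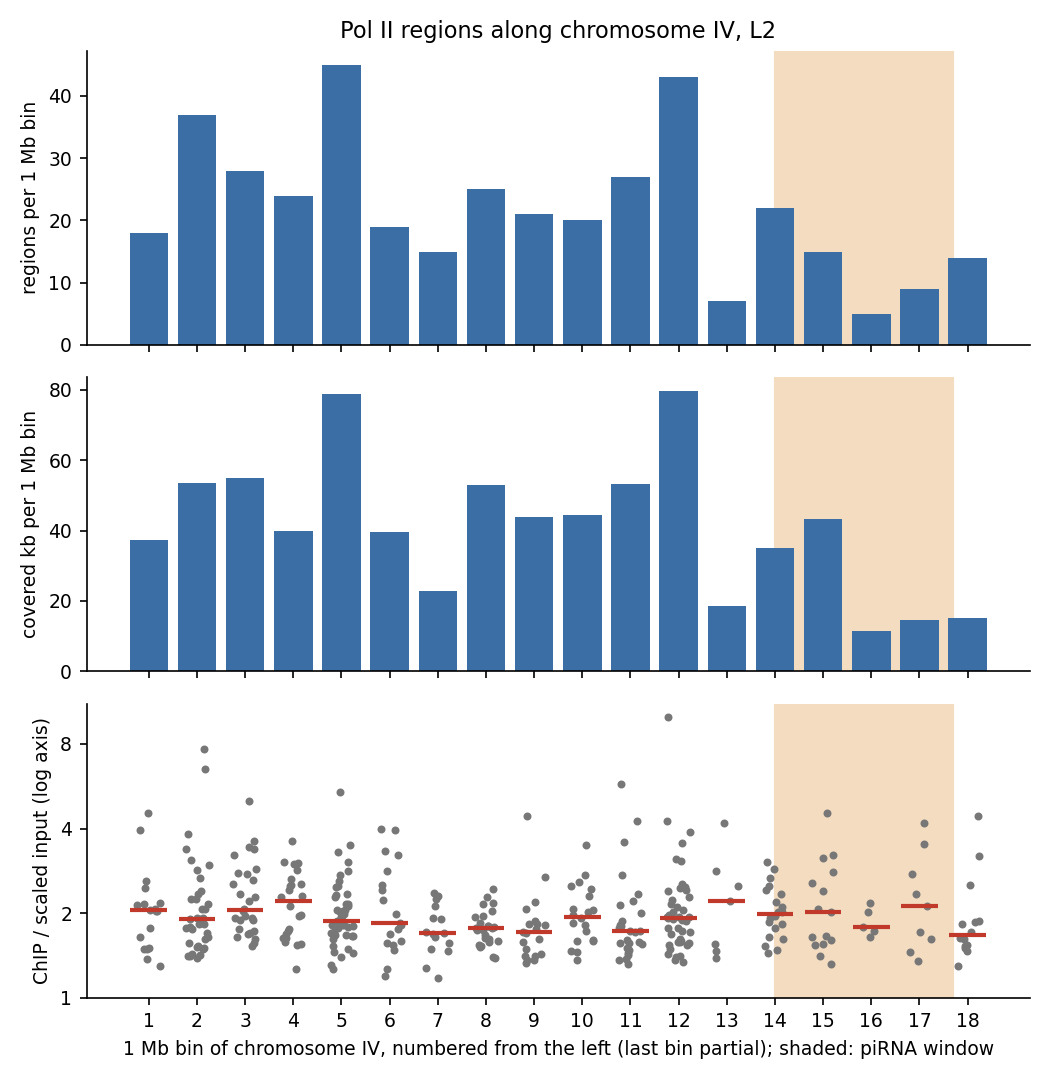
Regions (top), covered kb (middle) and enrichment of single regions (bottom, log scale; red bars are medians of bins) in the 18 bins of 1 Mb of chromosome IV, numbered from the left, with the piRNA window shaded. Bins 5 and 12 stand highest with 45 and 43 regions, and bin 16 lowest with 5, while the medians of enrichment stay between 1.68 and 2.22-fold.

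Left of the midpoint of the span lay 226 regions and right of it 168, so that 57.4% lay on the left (Wilson 95% interval 52.4% to 62.1%, which treats regions as independent). On the other chromosomes the left side held 31.8% to 52.8%. In covered length the left side of IV held 55.6%, and in ChIP tags 53.5%. The median width was 1016 bp on the left (884 to 1312, exact binomial interval of the median) and 1249 bp on the right (1041 to 1697), with overlapping intervals. The medians of enrichment were 1.89-fold (1.80 to 1.96) on the left and 1.84-fold (1.73 to 1.94) on the right. The right side outside the piRNA window had 24.7 regions per Mb and 48.4 kb covered per Mb, close to the 26.1 regions and 47.3 kb of the left side. Inside the window the values were 12.2 regions and 23.6 kb per Mb.

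The ends of IV were compared with those of the other chromosomes by placing a window of the same 3.7 Mb at the same distance from each end, 0.272 to 3.97 Mb. Near the right end, IV had 12.2 regions per Mb, or 0.476 of the density of the rest of the chromosome. The same ratio was 0.557 on V, 0.559 on I, 0.774 on III, 0.927 on X and 1.51 on II, so IV had the lowest value, next to those of V and I. In covered length V was lower (0.354) than IV (0.495). Near the left end the ratio was 1.36 on IV, above 1.04 on X, 0.831 on I, 0.539 on III, 0.495 on V and 0.193 on II. In covered length the left ratio of IV was 1.14 and those of the others 0.266 to 0.951. With 6 chromosomes and no replicate values, these orders were not tested.

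**Figure D4:**
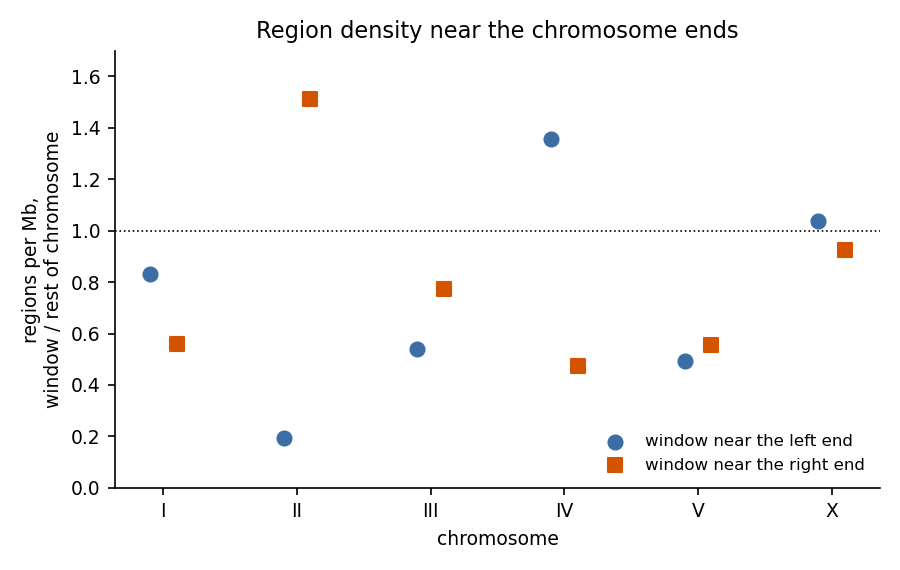
Ratio of regions per Mb in a 3.7 Mb window near each chromosome end to the density in the rest of that chromosome (vertical axis), by chromosome. IV shows 1.36 near its left end and 0.476 near its right end, where the window is that of the piRNA clusters; the dotted line marks equal density.

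The piRNA window from 13500000 to 17200000 held 45 regions, 11.4% of those on IV (Wilson 95% interval 8.65% to 14.9%) in 21.3% of its span. They covered 87.4 kb, or 23.6 kb per Mb, against 47.7 kb per Mb in the rest of IV. Of this length the single region IV_14610406 made up 16.2%. The regions present did not have a lower median enrichment, which was 2.01-fold (1.72 to 2.20) against 1.85-fold (1.80 to 1.92) outside, with overlapping intervals, and 23 of 44 with tags reached 2-fold (52.3%), against 137 of 347 outside (39.5%). Median widths were 1251 bp inside (846 to 1886) and 1115 bp outside (991 to 1356). Input tags before scaling averaged 54.6 per kb of region inside and 55.1 outside.

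Within the window the regions lay mostly in its left part. From the left border to 15 Mb there were 26 regions, or 17.3 per Mb, and from 15 Mb to the right border there were 19, or 8.64 per Mb, with 13.98 kb covered per Mb. Input tags before scaling differed between these parts, at 61.1 per kb of region in the left one and 42.7 in the right one, and the bin with the fewest regions, from 15 to 16 Mb, also had the lowest input of all bins, 33.4 per kb; the part of this in the region numbers was not tested. Left of the window, 11 regions lay between 13 Mb and its border, or 22 per Mb, so the bin of 7 regions from 12 to 13 Mb did not adjoin it. The 5 regions of lowest q in the window included 3 of the 15 lowest on the whole chromosome. IV_14032354 had 2782 ChIP tags against 863 scaled input tags. IV_14610406, from 14610406 to 14624612, had 4767 against 2367, the most ChIP tags recovered on IV, at 2.01-fold (1.88 to 2.16). IV_14984654 had 1064 against 235. IV_14762778 (14762778 to 14765212) had 1104 against 432, or 2.56-fold (2.18 to 3.02). The fifth, IV_16172249 (16172249 to 16173418), had 613 against 174, or 3.52-fold (2.77 to 4.59), and stood alone, with 270.8 kb free of regions before it and 256.4 kb after it. The first 4 of these lay between 14 and 15 Mb, the bin with the widest regions of IV (median 2229 bp) and a mean of 348 ChIP tags per kb of region, against 259 over all of IV. Its input before scaling was the highest of all bins as well, at 66.3 tags per kb against 55.1 over IV.

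The smaller piRNA stretch from 4.5 to 7 Mb held 49 regions, or 19.6 per Mb, between the 12.2 of the large window and the 26.9 of the rest of IV outside both. Its median enrichment was 1.78-fold (1.65 to 1.91), and 34.7 kb were covered per Mb. Its regions also thinned out along its length, with 19 regions between 5 and 6 Mb and 15 between 6 and 7 Mb. None of those 15 reached 3-fold, where the share over IV was 11.0%, and the highest was 2.36-fold. The same held for the 25 regions between 7 and 8 Mb, outside both stretches, where the highest was 2.43-fold. Whether regions in either stretch coincide with piRNA genes was not tested. The borders of both stretches are approximate and were not drawn on this build.

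Long stretches without any region lay on both sides of the midpoint. Of the 53 over 100 kb, 27 lay left of it, and 16 lay in or reached into the piRNA window. The longest ran for 569.6 kb, from 12217478 to 12787066, and 13 regions lay between it and the piRNA window. It began at the end of IV_12210264 (12210264 to 12217477), a region of 7214 bp with 1677 ChIP tags and 2.22-fold enrichment. The next ran for 424.2 kb, from 15276147 to 15700393. Of the 10 longest stretches, 5 lay in or reached into the piRNA window. On the other chromosomes the longest stretch was 324.8 kb on I, 404.5 kb on III, 654.1 kb on X, 890.1 kb on II and 1175 kb on V. A stretch without regions is one in which none passed the q limit, and it may hold one of the 42 regions not analysed here.

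Close neighbours on IV were less frequent than on chromosome I and more frequent than on each of the remaining chromosomes. Of the 393 gaps between neighbouring regions, 98 (24.9%) were at most 2000 bp, and the median gap was 17961 bp (quartiles 2012 and 55991 bp). On the other 5 chromosomes together 348 of 1489 gaps (23.4%) were that short, with 33.1% on I and 13.3% to 17.1% on the rest. Their median gap was 17466 bp, or 34631 bp without chromosome I. No gap in the whole list was under 200 bp. Joined at gaps of up to 2000 bp, 171 regions (43.4%, Wilson 95% interval 38.6% to 48.3%) formed 73 runs, of which 54 had 2 members, 14 had 3, 4 had 4 and 1 had 5. On the other 5 chromosomes together 570 regions (38.2%) lay in runs, with 51.4% on I and 22.6% to 30.5% on the rest. I and IV, with the largest shares, also had the most regions per Mb (42.7 and 22.7). Among the rest the order differed: II, with 14.7 per Mb, had 30.5% in runs and III, with 20.7, had 29.9%, while V, with 8.94, had 27.4% and X, with 9.19, had 22.6%. The part of density in these shares was not tested. On IV, runs held 113 of the 226 regions left of the midpoint (50%) and 58 of the 168 right of it (34.5%). Among the 472 regions of the list with the lowest q, 12.9% of the regions of IV were in runs, and their median gap was 106154 bp, since a stricter list removes neighbours. With the input of every chromosome scaled by the highest of the 6 inferred factors, 206 regions of IV stayed at the p limit and 21.4% of them were in runs.

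**Figure D5:**
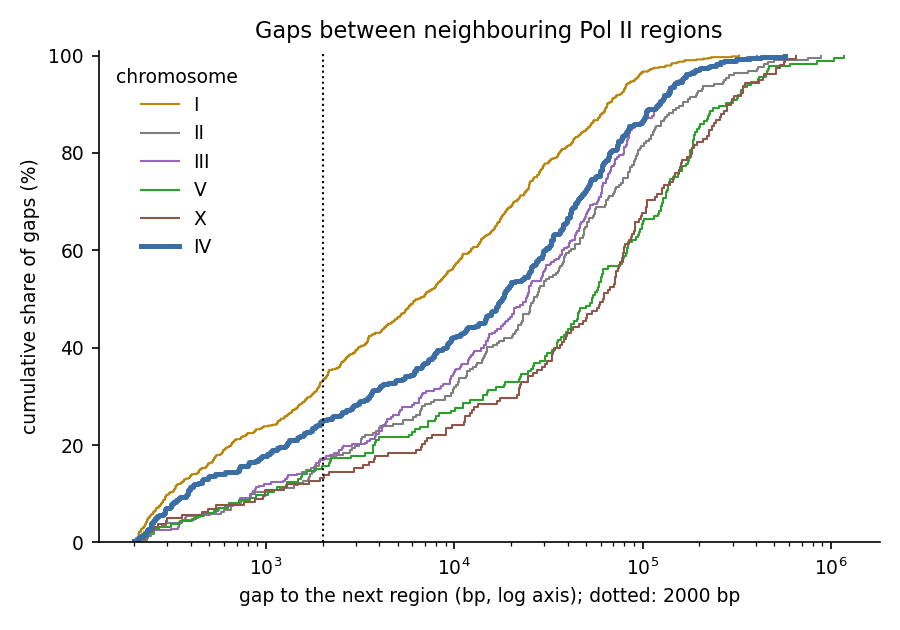
Cumulative share of gaps between neighbouring regions (vertical axis, %) by gap length (horizontal axis, bp, log scale) for each chromosome, with IV as the thick line. At the dotted line of 2000 bp IV stands at 24.9%, below I at 33.1% and above the other 4 at 13.3% to 17.1%.

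The largest run had 5 members in 10290 bp, from 4400689 to 4410978, of which 86.9% were covered. Its core was IV_4401916 (4401916 to 4408016), 6101 bp wide with 1942 ChIP tags and 1.81-fold enrichment (1.63 to 2.01). On its left lay IV_4400689, of 1016 bp and 2.50-fold (1.80 to 3.54). To its right followed IV_4408339 (1.46-fold, 1.08 to 2.03), IV_4409715 (2.32-fold, 1.33 to 4.98) and IV_4410432 (2.06-fold, 1.3 to 3.51), at gaps of 322 to 418 bp. The intervals of all 5 overlapped. The 4 runs of 4 members began at 823512, 2217973, 2922331 and 4744135, and so all lay in the first 5 Mb. In the run from 823512 to 829706 the members were all between 2.04 and 2.45-fold. In that from 2217973 to 2226562, IV_2217973 was 4209 bp wide with 1347 ChIP tags, and the others held 102 to 193. In that from 2922331 to 2926133, enrichment rose from 1.89-fold in the widest member, IV_2923051 (1354 bp), to 5-fold (1.28 to 44.7) in the narrowest, IV_2926065 (69 bp, 25 ChIP tags). The run from 4744135 to 4750363 stayed between 1.53 and 1.89-fold.

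Regions in runs had a median width of 1119 bp and single regions one of 1168 bp. Their median enrichments were 1.84-fold and 1.91-fold. The typical run stretched over 4.61 kb, of which 81.0% lay inside regions. Neighbours within 2000 bp differed in enrichment by a median factor of 1.25 (97 pairs with tags on both sides), and neighbours farther apart by 1.29 (290 pairs). Differences of 2-fold or more were seen in 2 of the 97 close pairs (2.06%) and in 30 of the 290 others (10.3%). The pairs farther apart include those of narrow single regions with few tags and wide intervals. Examples are IV_1874601 (23 ChIP tags, 7.67-fold, 1.53 to 389) and IV_12130243 (21 ChIP tags, 4.2-fold, 1.05 to 37.9). The part of counting error in these shares was not tested. Of the 15 regions with the lowest q on IV, 5 lay in runs, among them IV_4467914, which ended 384 bp before its neighbour, and IV_2599424 (2599424 to 2608546, 2866 ChIP tags, 2.87-fold), which ended 1329 bp before the next.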

How the data were processed

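The data were 1 combined list of regions from 2 ChIP and 2 input libraries. Regions were called with PeakSeq on WormBase WS210, per the file headers and the column that names the caller, and the q value of each region is the one the authors deposited. How reads were aligned and how replicates were joined is not stated in any source used here, and depth per library is unknown. A region belongs to the bin or window of its midpoint, and chromosome length was taken between the outermost regions.

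Tags were recovered from the q values. Equal p values at successive ranks gave whole-number solutions, of which an offset of 42 ranks was the most frequent, at 128 places. The number of tests, 15045, was the one for which most p values were one-sided binomial tails of whole tag pairs with equal odds (780 regions, against 3 for the runner-up). At a relative tolerance of 1e-09, 1878 regions had 1 pair, 5 had several and 5 had none. Scaled input counts of IV lay on rounded-up multiples of 2.44 in 88.2% of regions, where 41.0% of whole numbers are such multiples, and this factor is read as the input scaling, an inference. Intervals of enrichment used input tags before scaling and cover counting error only, since reads lacking molecular identifiers may be copies of one molecule. The recovery was tested on data simulated from the model it assumes, with a single input factor. Such data cannot show whether that model, or the reading as ChIP and input tags, holds here. Python 3.11.15 and scipy 1.17.1 were used.

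No test was made, since regions of 1 list are not replicates. Named were the 15 regions of lowest q on IV, the 5 widest, the 3 narrowest, the 5 most enriched with at least 100 ChIP tags, the 5 of lowest q in the piRNA window, the runs with 4 or more members, the 2 longest empty stretches and the 3 of highest q. IV_12210264 was chosen after its values were seen. The members, windows and rules were chosen with earlier results of these data known. Alternatives were stricter lists, merging of close regions, other borders, bins and gap limits, covered length and 1 input factor on every chromosome.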

Additional observations from a re-analysis of the deposited data

How the results depend on the processing

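Of 43 alternatives to the principal values, 26 stayed within their interval, or within 1.5 times for densities, and 17 moved. Reversal of a direction was not assessed. The fullest bin was compared by its share only, so a change of its place counted as staying. The ratio of region density in the piRNA window to the rest, 0.476, ran from 0.444 to 0.551 in region numbers; in covered base pairs it was 0.495, or 0.415 without the widest region. With the input of all chromosomes scaled by 3.16, which lowers enrichment on IV by construction, 206 regions were left at the p limit (17.8% of the list so reduced), and 21.4% of these lay in runs; the median enrichment was 1.44 over all 391 regions with tags and 1.68 over the 206. That factor also moved 22 of 46 named regions out of their interval, with 0 at or under 1-fold. Named regions were mostly chosen for low q, width or enrichment. Some regions of IV that were not named fell under 1-fold, among them IV_6335998 (0.909) and IV_5747133 (0.923). The common factor was added for the left side, the window, the bins and the runs after the data were seen, as was leaving out the widest region. Stricter lists hold fewer and wider regions by construction: with the 944 and the 472 regions of lowest q the median width was 2240 and 3567 bp, the median gap 51534.5 and 106154 bp and the share in runs 23.1% and 12.9%, and 21.2 kb were covered per Mb with the 472. Merging within 500 and 2000 bp gave median widths of 1475 and 1808 bp, and within 500 bp a median gap of 25992 bp. Runs held 32.0% at gaps of up to 1000 bp and 56.6% at up to 5000 bp. With the span cut into 3 equal parts, the left one held 67.2% of the regions in the outer parts. With at least 100 ChIP tags the median enrichment was 1.77. The fullest bin, from 10.5 Mb with bins shifted by 0.5 Mb (41 regions), was that from 4 to 5 Mb in the list and with the 944, and that from 11 to 12 Mb with the 472 (11 regions) and with one input factor (29 regions). No paired analysis was possible because replicates were merged into 1 list, and for the same reason no replicate could be left out. Depth per library is unknown, so sites below the limit of detection cannot be bounded.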
